A study of Mus musculus with 6 samples.

Results

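The genes described here encode 9 transcription factors of hepatocyte identity: Foxa1, Foxa2, Foxa3, Cebpa, Onecut1, Onecut2, Prox1, Gata4 and Gata6. They were picked by gene symbol, with earlier results of these data known, and are 9 of the 28880 genes in the deposited expression table of mouse liver. All 9 were among the 16717 genes with enough reads to be tested. Bulk RNA-seq was performed on whole liver from wild-type male C57BL/6J mice aged 6 to 8 weeks. In the acute ethanol group (n = 3), mice went without food for 12 h, were given ethanol (50%) by mouth once, at 6 g/kg, and were sampled 24 h later. The control group (n = 3) received no ethanol, and the labels do not say whether it was fasted, so fasting and ethanol cannot be told apart. All 6 libraries are labelled as batch 1, and each is named for 1 mouse, so p-values measure the spread between these mice. Ethanol replicate 3 stood apart over the whole transcriptome: the chi-square per degree of freedom between its counts and those of ethanol replicates 1 and 2 was 305.5 and 394, against 114 between those 2 and 40.4 to 86.4 between controls.

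Hepatocytes keep their character through a small network of factors that bind each other's genes and the genes of plasma proteins and metabolic enzymes. The FOXA proteins are pioneer factors that can bind their sites in closed chromatin. C/EBPα, encoded by Cebpa, drives genes of gluconeogenesis, urea synthesis and iron control and holds back proliferation. The ONECUT factors act in the choice between hepatocyte and cholangiocyte fates, Prox1 acts in hepatoblast migration and as a corepressor of nuclear receptors, and the zinc-finger factors Gata4 and Gata6 act from the budding of the liver onwards, with Gata4 also maintaining the sinusoidal endothelium. Several of these genes are also active outside hepatocytes, and in whole tissue fewer cells of a type and less RNA per cell cannot be told apart.

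After acute ethanol exposure, Gata6 and Onecut1 rose and Onecut2 and Foxa1 fell, whereas Foxa2, Foxa3, Cebpa, Prox1 and Gata4 did not pass the test. Gata6 was 5.82-fold higher, the largest rise of the 9, and Onecut2 was 2.95-fold lower, the largest fall. These calls came from edgeR's quasi-likelihood test of the deposited counts over all genes tested, with Benjamini-Hochberg adjustment and a threshold of 0.05. Of the 9 factors 2 were called higher and 2 lower, and over all genes tested 21.5% were called higher and 21.5% lower. At the stricter limit for a differentially expressed gene (DEG), which adds a log2 fold change beyond 1, 2 factors were higher (Gata6 and Onecut1) and 1 was lower (Onecut2), against 10.4% of all genes higher and 13.8% lower. On the TMM-scaled CPM scale the groups did not overlap for 4 of the 9 factors, the same 4 that passed the test, and for 59.0% of all genes tested. On the FPKM scale they did not overlap for 6 factors (Gata6 above, and Foxa1, Foxa2, Cebpa, Onecut2 and Gata4 below the controls, with Onecut1 overlapping) and for 66.9% of all genes tested. Without ethanol replicate 3, 3 factors were called higher (Gata6, Onecut1 and Cebpa) and 3 lower (Onecut2, Foxa1 and Foxa2), and the calls over all genes rose to 4351 higher and 4827 lower of 17622 tested. The factors' median log2 fold change was 0.14 against -0.04 over all genes tested, and it was -0.05 against -0.08 without ethanol replicate 3 and -0.52 against -0.71 with library size alone.

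**Figure D1:**
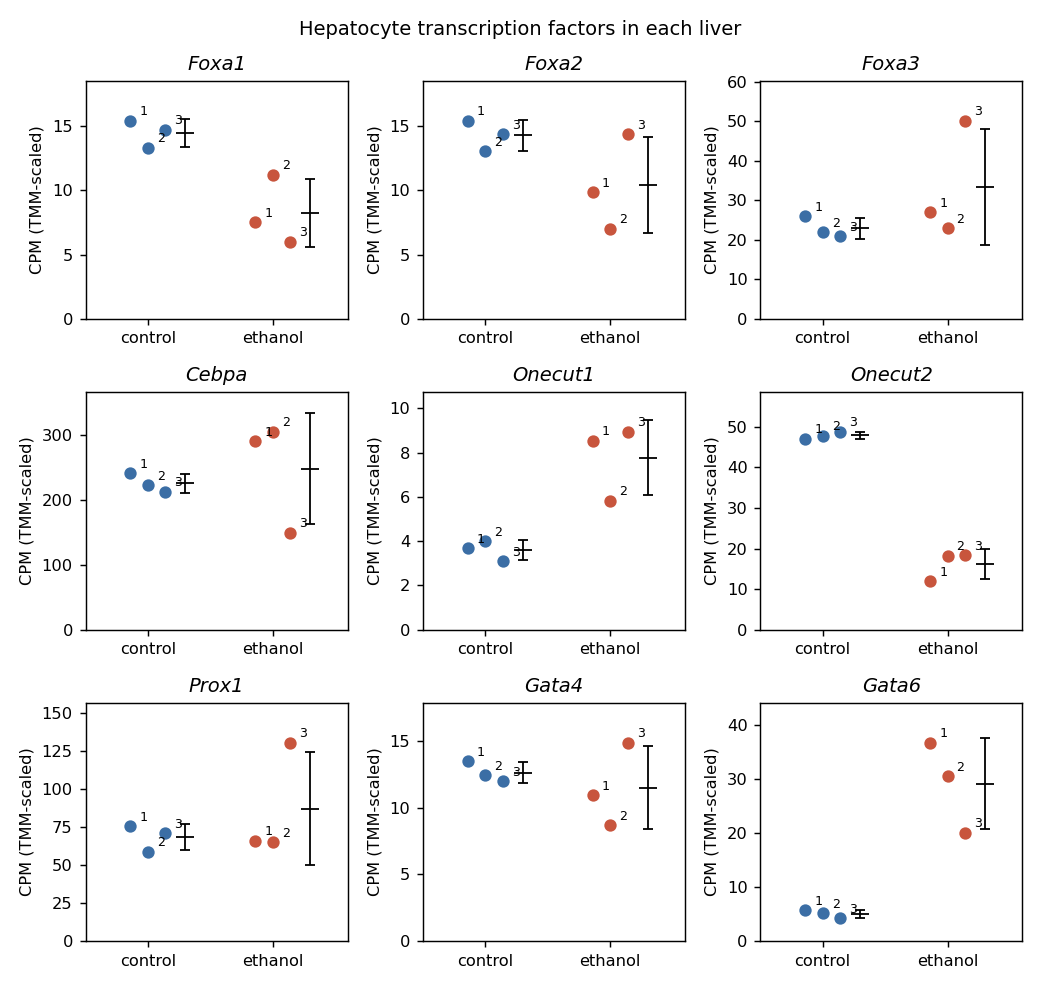
TMM-scaled CPM (linear axis from 0) of the 9 factors in each of the 3 ethanol and 3 control livers, with 1 point per mouse marked by its replicate number and the mean ± SD beside the points. The groups separate for Foxa1, Onecut1, Onecut2 and Gata6 and overlap for the other 5, and ethanol replicate 3 lies away from the other ethanol mice for Foxa3, Cebpa and Prox1.

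Scaling bears on every value below. The libraries held 60514417 to 74210869 assigned counts, and the TMM factors, which set the libraries to a common level for the bulk of genes, were 0.768 to 0.836 in ethanol and 1.26 to 1.27 in control livers. With library size alone, which is also the basis of FPKM (fragments per transcript length and library size), the middle value over all genes shifted from -0.04 to -0.71 on the log2 scale, and 1236 genes were called higher and 8077 lower instead of 3598 and 3591. Among the 9 factors that scaling called 1 higher (Gata6) and 4 lower (Onecut2, Foxa1, Foxa2 and Gata4). Below, CPM (counts relative to library size) is TMM-scaled and serves for differences between groups, and FPKM serves for levels of 1 gene against another. The 1000 most abundant genes took 80.7% to 82.9% of counts in ethanol and 73.7% to 74.5% in control livers, and mitochondrial genes took 8.50% to 9.26% and 5.45% to 7.40%. With genes split by length into 5 equal bins, the median log2 fold change went from 0.31 in the shortest to -0.19 in the longest bin. The factors' median length was 4181 bases, with a range from 2179 (Foxa3) to 17369 (Onecut2), against a median of 4059 over all genes tested. The part of these differences in the factors' values was not tested, apart from the fit with the length trend removed.

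The start sites of the FOXA genes and of Onecut1 are shown because Foxa1 and Onecut1 moved in opposite directions and Foxa3 stood apart from Foxa1 within its family. The sequences are the 250 bases before the annotated start from RefSeq (build GRCm38.p6), on the gene's own strand from 5′ to 3′. RefSeq entries were used for 6 of the 9 factors. No entry was used for Onecut2, Gata4 or Gata6, which include the largest fall and the largest rise. Motifs before the starts of these genes are therefore not reported. Capitals mark matches on either strand to motifs of the factors and of STAT proteins. The FOXA motif was searched as TNTTTAC and the ONECUT motif as ATCAAT. The C/EBP motif was searched as TTGCNNAA, the GATA motif as AGATAA and the STAT motif as TTCNNNGAA.
Foxa1, chr12:57546112-57546361, minus strand: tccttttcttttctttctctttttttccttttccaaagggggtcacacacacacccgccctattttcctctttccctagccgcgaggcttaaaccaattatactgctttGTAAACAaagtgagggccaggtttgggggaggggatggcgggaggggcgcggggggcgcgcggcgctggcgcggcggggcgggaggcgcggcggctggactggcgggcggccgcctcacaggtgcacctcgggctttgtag
Foxa2, first of 3 entries, chr2:148046970-148047219, minus strand: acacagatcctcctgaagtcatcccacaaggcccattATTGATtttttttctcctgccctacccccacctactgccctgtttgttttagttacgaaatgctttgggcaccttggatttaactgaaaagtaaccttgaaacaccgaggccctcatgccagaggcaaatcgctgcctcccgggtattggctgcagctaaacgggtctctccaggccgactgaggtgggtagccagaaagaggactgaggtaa
Foxa3, chr7:19023540-19023789, minus strand: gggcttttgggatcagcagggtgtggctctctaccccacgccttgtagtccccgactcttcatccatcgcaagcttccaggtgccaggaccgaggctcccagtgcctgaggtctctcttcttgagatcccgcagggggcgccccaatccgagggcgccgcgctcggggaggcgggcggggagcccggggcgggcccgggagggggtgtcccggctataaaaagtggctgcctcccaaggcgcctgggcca
Onecut1, chr9:74861671-74861920, plus strand: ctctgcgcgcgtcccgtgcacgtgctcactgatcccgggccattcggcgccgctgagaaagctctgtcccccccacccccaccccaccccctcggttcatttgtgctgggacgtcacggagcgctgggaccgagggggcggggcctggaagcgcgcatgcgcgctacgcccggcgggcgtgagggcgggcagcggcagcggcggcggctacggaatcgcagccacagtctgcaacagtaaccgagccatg
The Foxa1 window held 1 FOXA match starting at -141, a letter string found in 10.9% of 32851 promoter windows. The Foxa2 window held 1 ONECUT match at -213, found in 6.72% of windows, and another Foxa2 entry held a GATA match at -183, found in 9.99%. The C/EBP letters occur in 9.56% and the STAT letters in 7.02% of windows and were found at none of the 4 windows shown, and the Foxa3 and Onecut1 windows held none of the 5 motifs. The windows of Cebpa, of each Prox1 entry and of the remaining Foxa2 entry, which are not shown, also held none. For Foxa3 and each Prox1 entry, the bases just after the start occurred in no transcript of that gene in the annotation used. A match is a run of letters and not a measured binding site.

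Among the FOXA factors, Foxa1 (ENSMUSG00000035451, chromosome 12, 57587414 to 57593702 in the deposited table) measured 7.51, 11.2 and 6.01 CPM in the ethanol livers and 15.4, 13.3 and 14.8 CPM in the control livers. Every ethanol mouse lay below every control mouse. The group means were 8.25 ± 2.68 and 14.5 ± 1.09 CPM (SD, n = 3 each), and Foxa1 fell by 0.81 on the log2 scale (SE 0.23, edgeR adjusted p = 0.0268). The call held when ethanol replicate 2 or ethanol replicate 3 was left out, but the adjusted p from edgeR rose to 0.0911 without ethanol replicate 1, 0.0884 without control replicate 1, 0.0618 without control replicate 2 and 0.0827 without control replicate 3. It was also lost, at -0.68 with an edgeR adjusted p of 0.0586, when the libraries' trend with transcript length was removed.

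Foxa2 (ENSMUSG00000037025, chromosome 2, 147884797 to 147888889), which also controls bile acid handling and lipid use in fasting, measured 9.87, 6.999 and 14.4 CPM after ethanol and 15.4, 13.0 and 14.4 CPM in controls. Ethanol replicate 3 reached the control range and the other ethanol mice lay below it. The log2 fold change was -0.46 (SE 0.25, edgeR adjusted p = 0.183). Without ethanol replicate 2 it was -0.24 (edgeR adjusted p = 0.353), without ethanol replicate 3 it was -0.75 with an edgeR adjusted p of 0.00738, and with library size alone it was -1.14 with an edgeR adjusted p of 0.00511, so the absence of a call for Foxa2 rests on ethanol replicate 3 and on the scaling.

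Foxa3 (ENSMUSG00000040891, chromosome 7, 18747209 to 18757463), the most abundant FOXA gene of adult liver in these data, measured 26.9, 23.0 and 50.2 CPM after ethanol and 26.0, 21.97 and 20.9 CPM in controls. Ethanol replicate 3 was the highest of the 6 mice, and the other ethanol mice lay at or near the control range. The log2 fold change was 0.54 (SE 0.29, edgeR adjusted p = 0.169), fell to 0.13 without ethanol replicate 3 and was -0.14 with library size alone.

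Shares within a family do not depend on library scaling, because every member is divided by the same library. Foxa3 supplied 67.4%, 64.1% and 75.8% of the summed FOXA FPKM in the ethanol livers and 53.3%, 53.2% and 49.5% in the control livers. Foxa1 supplied 12.1% ± 6.83 after ethanol and 20.2% ± 1.03 in controls (SD, n = 3 each), and Foxa2 supplied 18.9% ± 2.22 and 27.8% ± 1.18. The FOXA pool thus held a larger share of Foxa3 and smaller shares of Foxa1 and Foxa2 in every ethanol mouse than in any control mouse. For Foxa1 the gap was narrow, with 19.2% in ethanol replicate 2 and 19.4% in control replicate 1. The exact two-sided permutation p was 0.1 for each of these shares, the smallest that 3 against 3 mice can give. The summed FOXA level was 17.1 ± 5.39 FPKM after ethanol and 25.5 ± 2.39 FPKM in controls (exact permutation p = 0.1), and this sum, unlike the shares, carries the scaling of FPKM.

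**Figure D2:**
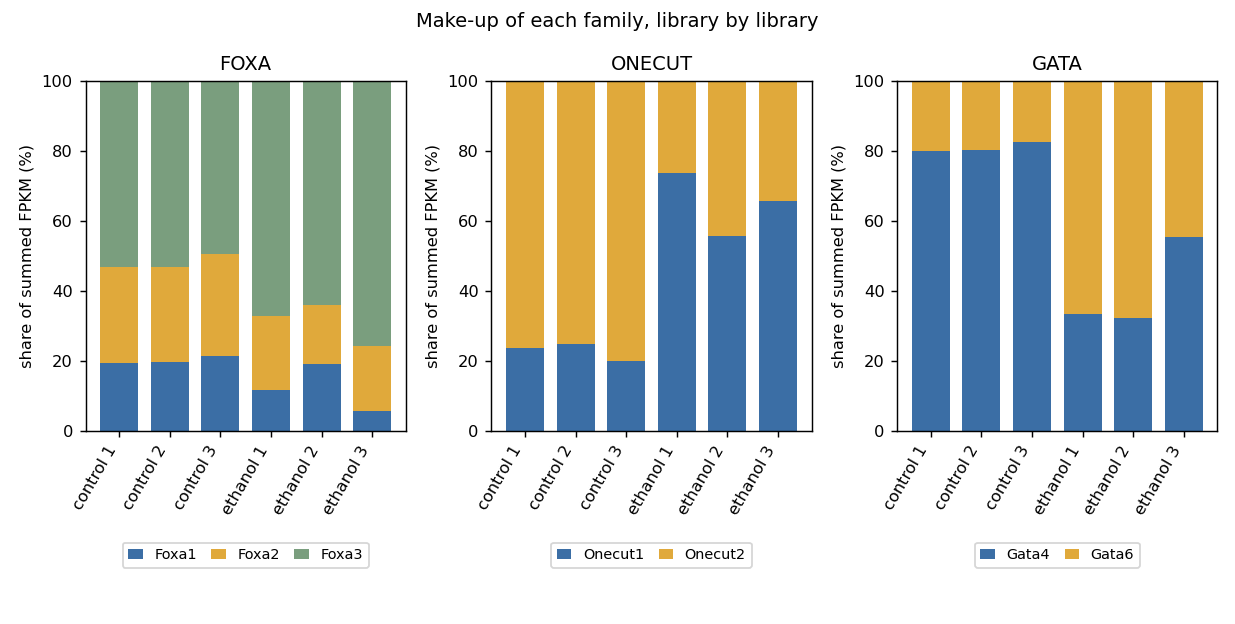
Share of each factor in the summed FPKM of its family (percent, bars to 100) in each liver, for the FOXA, ONECUT and GATA families. Onecut1 and Gata6 are the smaller part of their families in all 3 controls, and Onecut1 is the larger part in all 3 ethanol livers, as Gata6 is in ethanol replicates 1 and 2.

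Cebpa (ENSMUSG00000034957, chromosome 7, 34818718 to 34821353) measured 290.1, 305.0 and 149 CPM in the ethanol livers and 242, 223 and 213 CPM in the controls. The ethanol mice straddled the controls, with ethanol replicates 1 and 2 above and replicate 3 below all of them. The log2 fold change was 0.14 (SE 0.26, edgeR adjusted p = 0.688), but without ethanol replicate 3 it was 0.41 with an edgeR adjusted p of 0.00473, and without ethanol replicate 1 or 2 it was 0.016 or -0.036. With library size alone the sign turned, to -0.52. Its paralogs Cebpb and Cebpd, the C/EBP factors of the acute-phase response, both rose: Cebpb from 72.1 ± 6.48 to 709 ± 114 CPM (SD, n = 3 each; log2 fold change 3.30, edgeR adjusted p = 6.40e-05) and Cebpd from 4.83 ± 0.268 to 81.1 ± 19.1 CPM (4.07, edgeR adjusted p = 6.79e-05). Per length, the ratio of Cebpb to Cebpa FPKM was 0.472, 0.580 and 0.640 in the 3 controls and 4.68, 4.45 and 6.77 in the 3 ethanol livers. Cebpa was therefore the more abundant of the pair in every control mouse and Cebpb in every ethanol mouse, a comparison within each library that scaling does not touch.

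The ONECUT genes moved in opposite directions. Onecut2 (ENSMUSG00000045991, chromosome 18, 64473091 to 64534058) measured 12.0, 18.2 and 18.4 CPM after ethanol and 47.0, 47.7 and 48.7 CPM in controls. The 3 controls lay within a narrow band, well above every ethanol mouse. Onecut2 fell by 1.56 on the log2 scale (SE 0.18, edgeR adjusted p = 0.000759), and it was called lower under all 17 alternatives, with values from -2.22 to -1.37.

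Onecut1 (ENSMUSG00000043013, chromosome 9, 74769203 to 74799063), which encodes HNF6, measured 8.53, 5.82 and 8.94 CPM after ethanol and 3.69, 4.003 and 3.10 CPM in controls. Every ethanol mouse lay above every control mouse on this scale, and Onecut1 rose by 1.11 on the log2 scale (SE 0.22, edgeR adjusted p = 0.00678). On the FPKM scale the groups overlapped, with 1.502, 1.10 and 1.55 FPKM after ethanol and 1.06, 1.14 and 0.882 FPKM in controls. With library size alone the log2 fold change was 0.43 with an edgeR adjusted p of 0.114, so the call rests on the scaling. Onecut1 overlaps the long non-coding gene Gm20649 on the same strand, whose counts were 0 in 1 liver of each group and 199 and 420 in the other ethanol livers and 182 and 304 in the other controls. With both genes' counts summed, the log2 fold change was 1.06 (SE 0.30, edgeR adjusted p = 0.0255).

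Onecut1 made up 73.7%, 55.7% and 65.7% of the summed ONECUT FPKM after ethanol and 23.6%, 24.8% and 19.99% in controls. The balance of the pair was thus turned over in all 3 ethanol mice, with mean Onecut1 shares of 65.0% ± 9.03 and 22.8% ± 2.50 (SD, n = 3 each, exact permutation p = 0.1, the smallest possible). The summed ONECUT level was 2.13 ± 0.210 FPKM after ethanol and 4.50 ± 0.0978 FPKM in controls. This sum also carries the scaling of FPKM, which makes a fall look larger than under TMM scaling. On the TMM-scaled CPM scale Onecut1 was 7.77 ± 1.70 after ethanol and 3.60 ± 0.460 in controls. Onecut2 was 16.2 ± 3.66 and 47.8 ± 0.871 CPM.

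Prox1 (ENSMUSG00000010175, chromosome 1, 189850232 to 189902911) measured 65.9, 64.9 and 130.1 CPM after ethanol and 75.5, 58.5 and 71.0 CPM in controls. Ethanol replicate 3 was again the highest of the 6 mice, and the other ethanol mice lay inside the control range. The log2 fold change was 0.35 (SE 0.28, edgeR adjusted p = 0.346) and -0.05 without ethanol replicate 3. Prox1 is also a defining factor of lymphatic endothelium, and the summed FPKM of 5 lymphatic endothelial markers was 1.92 to 3.58 after ethanol and 2.75 to 5.62 in controls. This sum carries the scaling of FPKM. Of the 4 markers tested, Flt4 alone was called, and it was higher (log2 fold change 0.73, edgeR adjusted p = 0.0192). Its mean FPKM differed little, at 1.22 after ethanol and 1.16 in controls.

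Of the GATA factors, Gata6 rose and Gata4 was not called. Gata6 (ENSMUSG00000005836, chromosome 18, 11052064 to 11085635) measured 36.6, 30.5 and 20.05 CPM in the ethanol livers and 5.65, 5.13 and 4.20 CPM in the controls. The lowest ethanol mouse was far above the highest control mouse. Gata6 rose by 2.54 on the log2 scale (SE 0.24, edgeR adjusted p = 0.000417), and all 18 alternatives called it higher, with values from 1.16 to 2.76. Its antisense gene Gata6os overlaps it on the opposite strand with 123 to 146 counts after ethanol and 85 to 216 in controls, and the sources used here do not state whether strand was used in counting. With both summed, the log2 fold change was 2.23 (edgeR adjusted p = 0.000507).

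Gata4 (ENSMUSG00000021944, chromosome 14, 63436371 to 63509141) measured 11.0, 8.68 and 14.9 CPM after ethanol and 13.5, 12.4 and 12.0 CPM in controls. Its ethanol mice spread around the controls, and the log2 fold change was -0.14 (SE 0.20, edgeR adjusted p = 0.615), with values from -0.35 without ethanol replicate 3 to 0.027 without ethanol replicate 2. With library size alone it was -0.81 with an edgeR adjusted p of 0.00819, close to the shift of all genes under that scaling. Gata6 supplied 66.8%, 67.9% and 44.7% of the summed GATA FPKM after ethanol and 20.03%, 19.7% and 17.4% in controls, with means of 59.8% ± 13.1 and 19.0% ± 1.47 (SD, n = 3 each, exact permutation p = 0.1, the smallest possible). The summed level of both genes was 5.47 ± 0.592 FPKM after ethanol and 4.71 ± 0.372 FPKM in controls (exact permutation p = 0.2). This sum carries the scaling of FPKM, which lowers ethanol values relative to TMM scaling. On the TMM-scaled CPM scale Gata6 was 29.1 ± 8.38 after ethanol and 4.99 ± 0.733 in controls. Gata4 was 11.5 ± 3.13 and 12.6 ± 0.764 CPM.

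**Figure D3:**
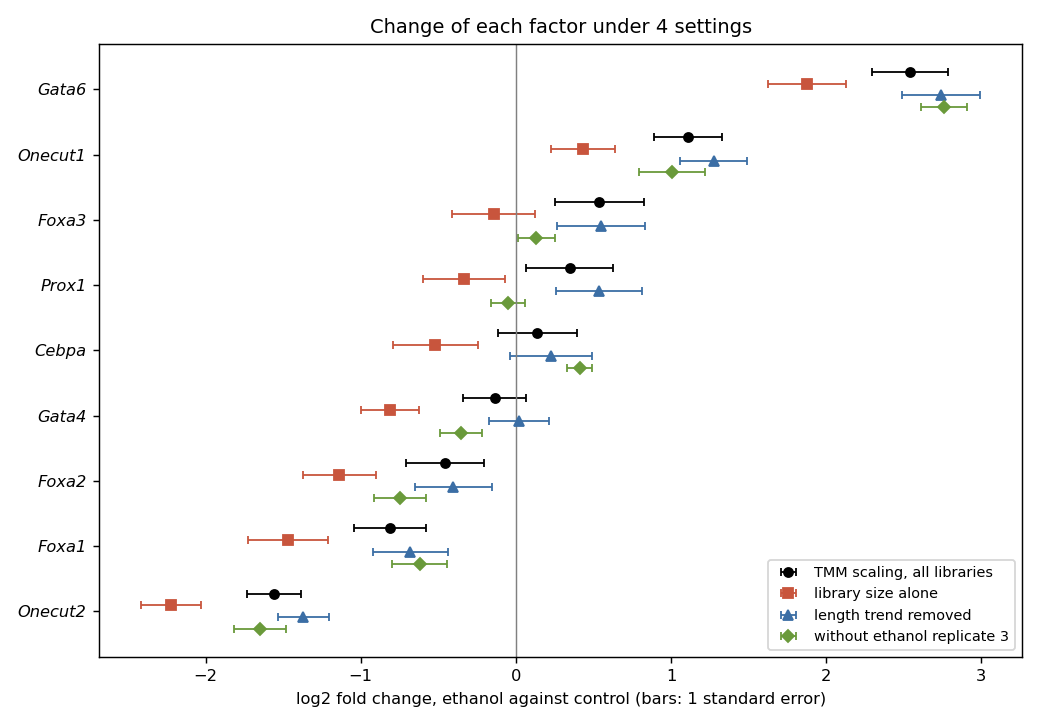
Log2 fold change of each factor, ethanol against control, from edgeR on TMM-scaled counts, with its standard error, beside the values under the alternative settings. Gata6, Onecut1, Onecut2, Foxa1 and Foxa2 keep their side of 0 under every setting shown, and Foxa3, Cebpa, Prox1 and Gata4 have settings on both sides of 0.

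Per length, the control livers ordered the factors as Cebpa (101 ± 6.85 FPKM, SD, n = 3), Foxa3 (13.3 ± 1.58), Prox1 (9.60 ± 1.25), Foxa2 (7.10 ± 0.617), Foxa1 (5.14 ± 0.393), Gata4 (3.81 ± 0.243), Onecut2 (3.47 ± 0.0538), Onecut1 (1.03 ± 0.133) and Gata6 (0.900 ± 0.134). Of the neighbours in that order, the mice overlapped for Onecut1 and Gata6 alone. The ethanol livers kept Cebpa (70.2 ± 26.2 FPKM), Foxa3 (12.0 ± 4.91) and Prox1 (7.62 ± 3.04) at the head. They were followed by Gata6 (3.31 ± 0.981), Foxa2 (3.22 ± 1.04), Gata4 (2.16 ± 0.510), Foxa1 (1.85 ± 0.696), Onecut1 (1.39 ± 0.248) and Onecut2 (0.742 ± 0.182). Gata6 stood at rank 9 in controls and rank 4 after ethanol, and Onecut2 at ranks 7 and 9, although most neighbours in the ethanol order overlapped between mice, with gaps only between Cebpa and Foxa3, Prox1 and Gata6, and Onecut1 and Onecut2.

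**Figure D4:**
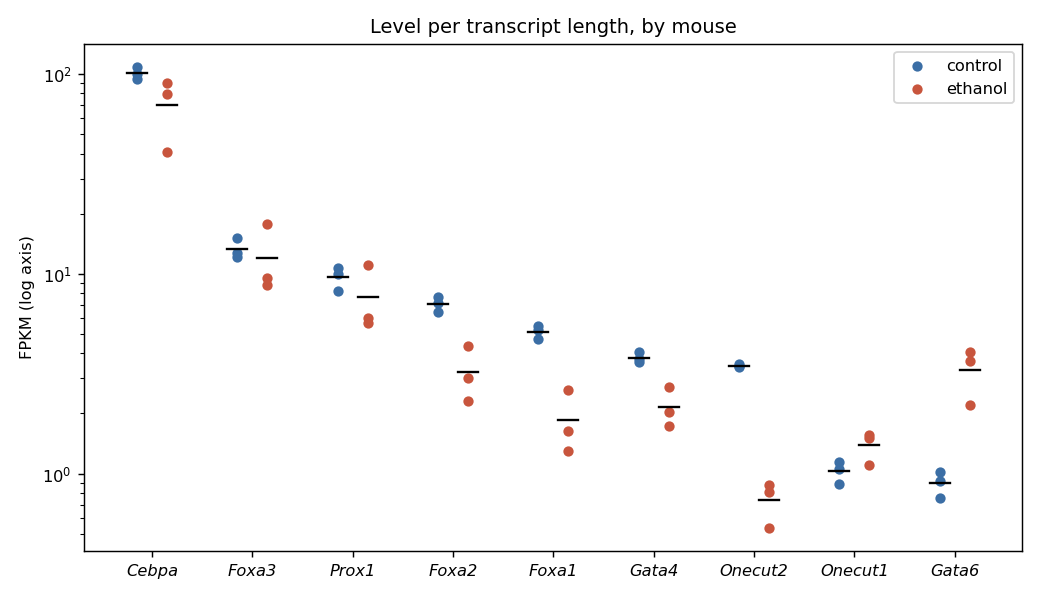
FPKM (log axis) of the 9 factors in each control and ethanol liver, ordered by the control mean. Cebpa is the most abundant in both groups, Gata6 stands at rank 9 in controls and rank 4 after ethanol, and Onecut2 at ranks 7 and 9.

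The wider families of the factors were described with lists of related genes, also made with earlier results of these data known. Beside each count, the shares over all genes tested were 21.5% higher and 21.5% lower under TMM scaling, and 7.39% higher and 48.3% lower with library size alone. Of 30 paralogs 25 were tested, and 11 rose, 2 fell and 12 were not called (median log2 fold change 0.47), and with library size alone 4 were higher and 10 lower. Besides Cebpb and Cebpd, the forkhead gene Foxq1 rose (log2 fold change 1.99, edgeR adjusted p = 0.00179), and Foxo1, the insulin-controlled forkhead factor of gluconeogenesis, rose from 23.4 ± 3.72 to 78.8 ± 8.53 CPM (1.75, edgeR adjusted p = 0.000263). The paralogs that fell were Cebpg (-1.29, edgeR adjusted p = 0.00142) and Foxo4 (-0.87, edgeR adjusted p = 0.0117).

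The partners, which are factors that act beside the 9 in hepatocytes and their cofactors, numbered 28. Of 27 tested, 4 rose, 11 fell and 12 were not called, where all genes tested gave 21.5% each way (median log2 fold change -0.24, against -0.04), and with library size alone 0 were higher and 20 lower, where all genes gave 7.39% and 48.3%. Nr0b2, the repressor SHP of bile acid synthesis, fell from 42.9 ± 10.5 to 5.69 ± 0.834 CPM (-2.92, edgeR adjusted p = 0.000193). Zhx2, a repressor of fetal liver genes, fell (-1.68, edgeR adjusted p = 0.00196), as did the homeobox factor Hhex (-1.19, edgeR adjusted p = 0.0141), whose edgeR adjusted p was 0.0528 without control replicate 1. Zfpm1, which encodes the GATA cofactor FOG1, fell from 45.1 ± 3.23 to 23.8 ± 2.33 CPM (-0.92, edgeR adjusted p = 0.00116), and Zfpm2, which encodes FOG2, had a log2 fold change of -0.64 (edgeR adjusted p = 0.314). Nr1h4, the bile acid receptor FXR, rose (1.02, edgeR adjusted p = 0.00698), and so did Creb3l3 (0.74, edgeR adjusted p = 0.00347). Hnf4a, the central nuclear receptor of hepatocyte identity, rose from 405 ± 14.4 to 656 ± 46.7 CPM (0.69, edgeR adjusted p = 0.00243), but with library size alone its log2 fold change was 0.02 (edgeR adjusted p = 0.868), and Nr1h4 and Creb3l3 lost their calls there too.

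Genes known as targets of the factors were counted in the same way, again beside 21.5% higher and 21.5% lower over all genes tested and 7.39% and 48.3% with library size alone. Of 20 FOXA targets, 12 rose, 2 fell and 6 were not called (median 0.61), and with library size alone 5 were higher and 5 lower. Igfbp1 (3.69, edgeR adjusted p = 0.000294), Tat (2.13, edgeR adjusted p = 0.000173) and Tdo2 (1.61, edgeR adjusted p = 0.000249) rose the most, and G6pc1, the glucose-releasing phosphatase, fell from 879 ± 96.6 to 119 ± 68.7 CPM (-2.89, edgeR adjusted p = 0.00374). Of 16 C/EBPα targets, 8 rose, 1 fell and 7 were not called (median 0.72), against 3 higher and 5 lower with library size alone. Hamp, which encodes the iron hormone hepcidin, rose from 60.02 ± 9.97 to 1521 ± 220.2 CPM (4.66, edgeR adjusted p = 4.51e-05). Of 15 tested targets of the ONECUT, PROX1 and GATA factors, 5 rose, 3 fell and 7 were not called (median 0.20), against 2 higher and 6 lower with library size alone. Lyve1, a hyaluronan receptor of sinusoidal and lymphatic endothelium, rose from 3.52 ± 0.146 to 42.3 ± 23.8 CPM (3.59, edgeR adjusted p = 0.000692). Nr5a2, a nuclear receptor of bile acid synthesis, fell (-0.68, edgeR adjusted p = 0.0104). Pck1, which encodes the gluconeogenic enzyme PEPCK, rose (1.03, edgeR adjusted p = 0.0213), but its edgeR adjusted p was 0.0616 to 0.0815 when any library except ethanol replicate 3 was left out, and with library size alone its log2 fold change was 0.37 (edgeR adjusted p = 0.315). The lists share genes, such as G6pc1, Tat, Pck1, Hamp and Nr0b2, so their counts overlap.

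**Figure D5:**
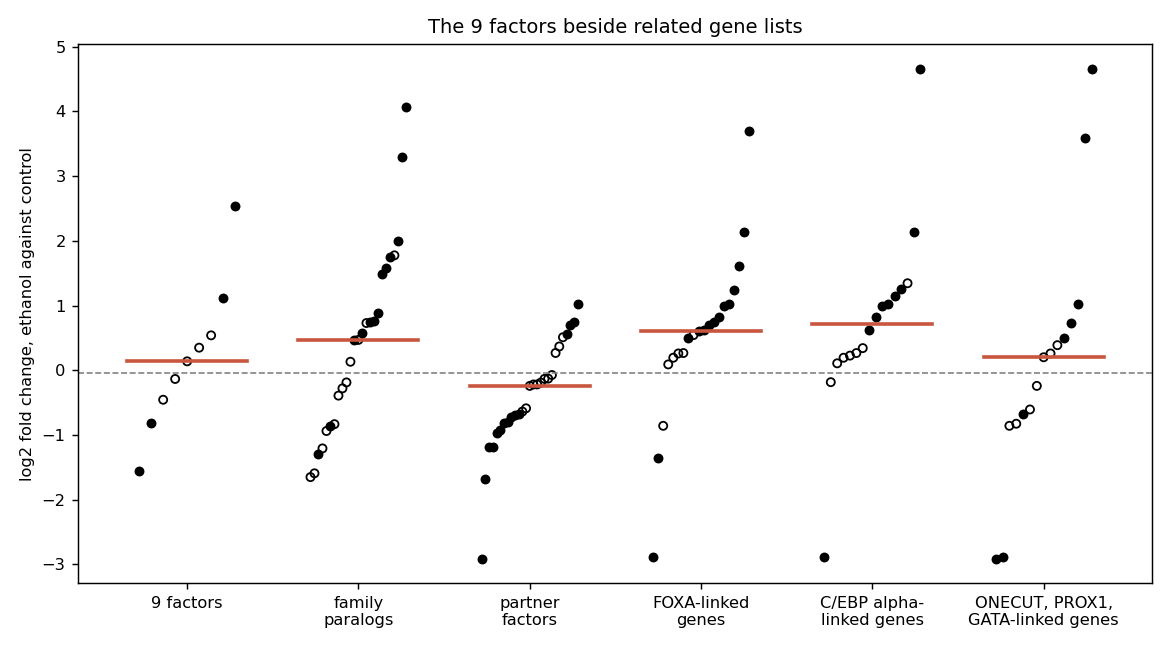
Log2 fold change, ethanol against control, of every tested gene in the lists of paralogs, partners and targets, beside the 9 factors, with 1 point per gene, filled where called, a red line at each median and a dashed line at the median of all genes tested. The medians run from -0.24 for the partners to 0.72 for the C/EBPα targets.

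Markers of hepatocytes and of other cells of the liver were counted beside the same all-gene shares, 21.5% higher and 21.5% lower under TMM scaling and 7.39% and 48.3% with library size alone. Hepatocyte markers were present in every liver, and 10 of 12 rose and none fell under TMM scaling, against 4 and 2 with library size alone (summed FPKM 59220 to 61311 after ethanol, 51390 to 57316 in controls). Of 8 cholangiocyte markers tested, Sox9 alone rose (2.78, edgeR adjusted p = 5.61e-05), Krt7 and Krt19 were at 0.110 and 0.507 FPKM after ethanol and 0.198 and 1.40 FPKM in controls, and the summed FPKM was 46.6 to 66.8 against 68.6 to 93.4. Of 9 sinusoidal endothelial markers 2 rose and 4 fell (18.8 to 34.4 FPKM against 34.4 to 39.7), of 9 stellate markers 4 rose (46.4 to 56.6 against 52.4 to 60.5), and mesothelial markers were low in both groups (0.127 to 0.816 against 1.22 to 1.53). All 5 neutrophil markers tested rose (2.33 to 14.1 FPKM against 0.261 to 0.704) with ethanol replicate 3 the highest, and 4 of 5 erythroid markers rose (532 to 761 against 201 to 250.3). Kupffer cell markers summed to 48.0 to 60.4 FPKM against 82.5 to 91.0, with 1 of 8 lower. These sums carry the scaling of FPKM. Under TMM scaling the median log2 fold change was -0.21 for Kupffer cell and 0.07 for cholangiocyte markers. It was -0.24 for sinusoidal endothelial and 0.43 for stellate markers. No marker was at 0 in all 6 libraries, and the part of these cell types in the changes of Gata6, Onecut1, Onecut2 and Foxa1 was not tested.

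Genes within 10 kb of the factors were listed as well. The long non-coding gene 9030622O22Rik, which lies 2621 bases from Foxa2 on the same strand, had 195, 190 and 116 counts after ethanol and 1191, 921 and 1018 in controls and fell (-2.11, edgeR adjusted p = 0.000425), whereas Foxa2 itself was not called. Near Foxa3, Irf2bp1 fell (-1.17, edgeR adjusted p = 0.00156) and Sympk had a value of -0.25 (edgeR adjusted p = 0.0702), but it was called lower under 6 of 17 alternatives, among them library size alone (-0.92, edgeR adjusted p = 0.000531) and the fit without ethanol replicate 3 (-0.24, edgeR adjusted p = 0.0439), and with the length trend removed its value was -0.07 (edgeR adjusted p = 0.564). Next to Onecut1, Gm16551 lies 1787 bases away on the same strand and fell (-2.04, edgeR adjusted p = 0.00948) while Onecut1 rose. Gm57154, which overlaps Prox1 on the opposite strand, fell (-1.59, edgeR adjusted p = 0.0298) but lost its call without ethanol replicate 1 or 2 or control replicate 1 or 3 (edgeR adjusted p 0.0557 to 0.110) and in the fit with a replicate block (0.102). Prox1os had a value of 0.33 (edgeR adjusted p = 0.408), and Neil2 beside Gata4 had a value of -0.89 (edgeR adjusted p = 0.224) and was called lower by limma on log2(FPKM + 1) and log2(FPKM + 0.1) (-0.11 and -0.69, limma adjusted p = 0.0296 and 0.0241). Gm45091, which overlaps Cebpa on the opposite strand, held 9 to 72 counts after ethanol and 18 to 23 in controls (1.29, edgeR adjusted p = 0.188), with a value of 0.25 (edgeR adjusted p = 0.784) without ethanol replicate 2 and 1.74 (edgeR adjusted p = 0.0384) without ethanol replicate 3.

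For each factor the genes with the most similar profile were sought among genes within 4-fold of its abundance, by the root mean square difference of centred log2 CPM over the 6 libraries. Gata6 was closest to Plscr1 (0.073) and Rhbdf1 (0.145), and Onecut2 to Khnyn (0.103) and Shtn1 (0.108). Foxa1 was closest to Siae (0.041) and Tmco3 (0.086), Foxa2 to Tesk2 (0.039) and Rars2 (0.069), and Foxa3 to Akap11 (0.064) and Zfp787 (0.074). Onecut1 was closest to Brpf1 (0.095) and Tmem256 (0.115). For Cebpa, Prox1 and Gata4 the nearest profiles were those of Ugp2 (0.047), Sfpq (0.106) and Snw1 (0.033). Likeness to a profile describes these 6 mice only.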

How the data were processed

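Liver RNA was sequenced as paired-end reads by the authors, who deposited counts and FPKM per gene. Aligner and counting tool are not given in the sources used here. The submitters' processing notes list GRCm38 and mm10. However, only 2.27% of 27049 shared gene identifiers (614) have the same start or end as in the GRCm38 annotation used here. Coordinates of genes are therefore those of the deposited table, and the build they follow could not be settled. One deposited count column (1 in all) that belongs to no labelled sample was not used. Counts were filtered, scaled by TMM and tested with edgeR 4.0.16 (quasi-likelihood, R 4.3.3) over all 6 libraries without covariates, and P values were Benjamini-Hochberg adjusted over 16717 genes. Alternatives used limma 3.58.1 on log2(FPKM + 1) and DESeq2 1.42.0. Family shares were compared by exact permutation. The scripts were tested on simulated data. Replicate numbers did not pair mice (correlations of same-numbered deviations -0.035 to -0.017). None of the 6 pairs of libraries within a group agreed within sampling noise. The members and lists were chosen with earlier results of these data known. Named genes were the members, their neighbours within 10 kb, up to 3 rises and 3 falls per list among called genes that did not overlap between groups and had at least 1 FPKM, and a fixed set including Hnf4a, Cebpb, Cebpd, Foxo1, Zfpm1 and Zfpm2. Some genes that this rule names are not reported here. The marker symbol Tf was read as Trf. Counting errors are small at the depth given, since the factors had 255 to 22674 counts per library.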

Additional observations from a re-analysis of the deposited data

How the results depend on the processing

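Gata6 and Onecut2 kept their direction and call under every alternative run. Of the 9 factors, 2 were called higher and 2 lower. With library size alone, and with limma on log2(FPKM + 1) or log2(FPKM + 0.1), 1 was higher and 4 were lower, and with the trend with transcript length removed 1 was lower. Over all genes the higher and lower calls were 1236 and 8077, 1248 and 8640, 1267 and 8679, and 3996 and 3003 under these 4 settings. As DEGs, 1 was higher with library size alone and with each limma setting, and 3, 2 and 3 were lower. Leaving out 1 library gave 2 to 3 higher and 1 to 3 lower, and 2 and 1 to 2 as DEGs, while the calls over all genes were 2508 to 4351 higher and 2346 to 4827 lower. With library size alone the lists had 4 higher and 10 lower (paralogs), 0 and 20 (partners), 5 and 5 (FOXA targets), 3 and 5 (C/EBPα targets) and 2 and 6 (ONECUT, PROX1 and GATA targets). Leaving out 1 library gave 2 to 4 paralogs lower and, for the ONECUT, PROX1 and GATA targets, 2 to 7 higher and 3 to 5 lower. The sign turned with library size alone, limma on log2(FPKM + 1) and limma on log2(FPKM + 0.1) for Foxa3 (-0.14, -0.19 and -0.21), Cebpa (-0.52, -0.59 and -0.60), Prox1 (-0.33, -0.35 and -0.39), Prox1os (-0.35, -0.24 and -0.37) and Gata6os (-0.17, -0.033 and -0.097). It also turned for Gata4 with the length trend removed (0.020). Leaving out 1 library gave -0.036 (without ethanol replicate 2) to 0.41 (without ethanol replicate 3) for Cebpa, -0.051 (without ethanol replicate 3) to 0.51 for Prox1, -0.35 to 0.027 (without ethanol replicate 2) for Gata4 and -0.14 (without ethanol replicate 1) to 1.66 for Gm20649. The cause was not tested. With a replicate block the calls were the same 2 higher and 2 lower factors, with Gata6 at 2.51, Onecut2 at -1.59, Onecut1 at 1.09 and Foxa1 at -0.86, and over all genes 2890 were higher and 2886 lower, against 3598 and 3591 without it. With 3 mice a group, the typical gene's standard error (median 0.26, log2) is a limit on what the uncalled factors can show. Summing overlapping genes was an alternative chosen after seeing the data.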
